A study of Sus scrofa with 6 samples.

Results

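Solute carriers (SLC) were described in pig muscle stem cells, the porcine satellite cells (PSCs), at 2 times of differentiation. The members were the rows of the deposited FPKM table (fragments per kilobase of gene, scaled to the counted fragments of the library) whose pig Ensembl identifier was paired with a symbol starting with SLC and a digit. This rule took 285 of the 28266 rows, and it used no measured value. Only 11804 of the 25322 Ensembl identifiers were paired with a symbol, so carriers without one are not counted. SLC2A1, SLC2A3, SLC16A1, SLC7A5, SLC5A3, SLC8A1, SLC20A1, SLC30A1, SLC39A14, SLC25A6, SLC25A33 and SLC22A5 were among those not paired and were not analysed here. The members were sorted by substrate into 10 main classes, with 5 members of other or unassigned function and with SLC4A1AP, an adaptor protein that carries the name but transports nothing, set apart.

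The PSCs came from the muscle of newborn male Yorkshire pigs and were differentiated in medium with horse serum. The group N1 (3 libraries, replicates 4, 5 and 6) was harvested at 24 h. The group N2 (3 libraries, replicates 4, 5 and 6) was harvested at 36 h by the series title and the paper, whereas the sample labels give 48 h. The labels name no siRNA. The letter N of the titles is the one the study uses for cells that received negative control (NC) siRNA, and both groups are taken to share it on that letter alone. Cells treated with H19 siRNA are not analysed here. No source says whether the replicates came from separate animals or cultures. The p-values then measure the spread between these libraries, which may be technical. Every library is bulk RNA, in which fewer cells of a kind and less RNA per cell cannot be told apart.

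SLC proteins move solutes across membranes by facilitated diffusion, exchange or coupling to an ion gradient. At the plasma membrane they bring in sugars, amino acids, choline and creatine and let out lactate. In the Golgi they load nucleotide sugars for glycosylation. In the inner mitochondrial membrane the SLC25 family exchanges ADP, ATP, phosphate, carnitine esters and amino acids. Differentiating muscle is known for changing its fuel supply, its calcium handling and its isoforms of the adenine nucleotide carrier as myoblasts leave the cell cycle and fuse.

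Each N1 library held 16248619 to 16773012 recovered fragments and each N2 library 17872094 to 21721227, so that 1 fragment per kb equalled 0.0457 to 0.0610 FPKM. Myogenic markers were high, since the summed FPKM of 7 of them (DES, MYOD1, MYF5, CDH15, NCAM1, MYMK and ACTA1) was 3032.1 to 5119.1 in N1 and 9943.2 to 11184.7 in N2. Of these DES, CDH15, MYMK and ACTA1 rose, but MYMK did not pass in the fits without N2 replicate 4, 5 or 6. MYOD1 (log2 change -0.29), MYF5 (log2 change -0.48) and NCAM1 (log2 change 0.20) did not pass the test. NCAM1 passed with the median-ratio scaling described below. Of the other cell types, 6 fibroblast markers summed to 930.0 to 1001.2 FPKM in N1 and 825.0 to 1030.4 in N2. In that list COL1A2, DCN and LUM fell and COL3A1 rose, FAP did not pass the test and PDGFRA lay under the minimum used for testing. The endothelial marker KDR and the immune marker PTPRC were listed at 0 in every library, and the 3 endothelial and 3 immune markers summed to at most 1.67 and 2.44 FPKM. The adipocyte marker PLIN1 was at most 0.0773 FPKM. An extraction protocol in the labels speaks of endometrium, but the epithelial and hormone receptor genes KRT8 and PGR were listed at 0 and EPCAM at 0 to 0.0370 FPKM. CDH1, another epithelial gene, was 0.107 to 0.430 FPKM in N1 and 2.35 to 4.36 FPKM in N2. N1 replicate 6 stood apart from its group. Its ACTA1 level, the skeletal muscle actin, was 467 FPKM against 1852.7 and 1424.9 in N1 replicates 4 and 5. It was also the highest library for 78 of the 137 SLC members tested, against 7 to 17 in each other library. This count was made over the SLC members only, so it cannot tell a trait of these genes from one of the whole library. Pearson's r of log2 values was 0.972 to 0.994 between libraries of one group and 0.910 to 0.962 between groups.

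Of the 285 members, 137 (48.1%) had a mean of at least 1 FPKM over the 6 libraries and were tested. Among all rows with a symbol this share was 66.8%. Another 27 members were listed at 0 in every library, 64 had a mean above 0 and under 0.1 FPKM, and 57 a mean between 0.1 and 1 FPKM. Of those tested, 74 had a mean under 10 FPKM, 61 a mean from 10 to 100 FPKM and only 2 a mean of at least 100 FPKM, namely the mitochondrial phosphate carrier SLC25A3 and the adenine nucleotide carrier SLC25A4. The median of the mean levels was 9.15 FPKM over the tested members and 9.89 FPKM over all 14060 genes tested. Coverage differed by class. All 32 SLC25 genes had fragments and 27 of them passed the minimum, whereas 21 of 49 amino acid and peptide carriers, 9 of 34 carriers of organic ions and lipids and 4 of 18 carriers of creatine, choline and amines did. The SLC25 family alone held 37.1% to 39.7% of the summed FPKM of all SLC members in each library. All SLC members together made up 0.445%, 0.455% and 0.491% of the FPKM sum of N1 replicates 4, 5 and 6 and 0.434%, 0.429% and 0.433% of that of N2, so the groups did not overlap.

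**Figure D1:**
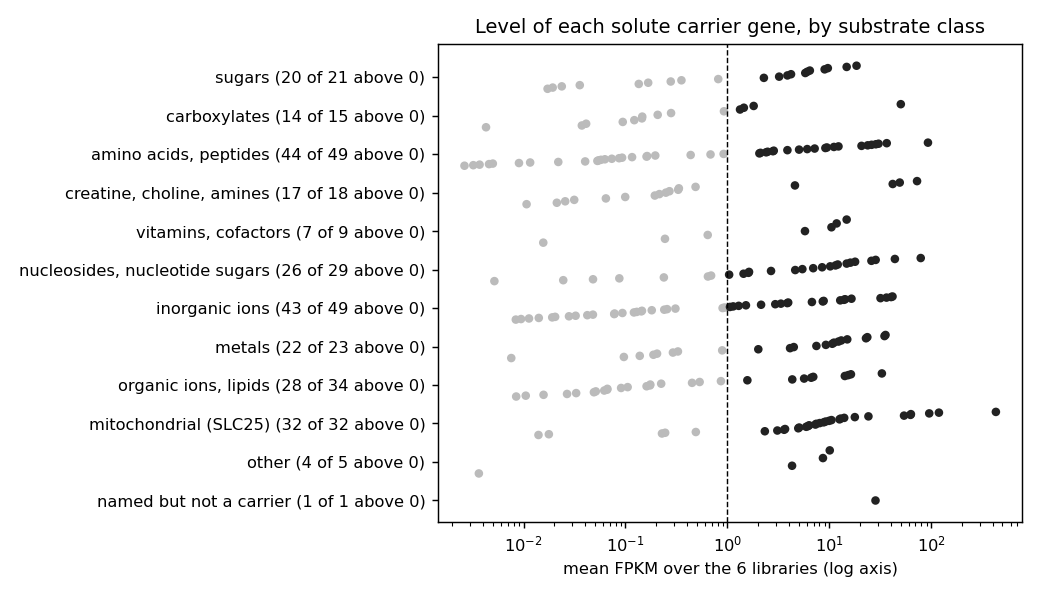
Mean FPKM over the 6 libraries (log axis) of each SLC member with a value above 0, by substrate class, with dark points at or above the minimum of 1 FPKM (dashed line) and grey points below it. The highest point is the mitochondrial carrier SLC25A3, and most carriers of organic ions, lipids, creatine, choline and amines lie left of the line.

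Between N1 and N2, 17 of the 137 tested members rose (12.4%), 59 fell (43.1%) and 61 did not pass the test (limma on log2(FPKM + 1), adjusted p under 0.05 over all genes tested). Over all 14060 genes tested, 16.5% rose and 34.4% fell, 50.9% in either direction against 55.5% of the members. A change of at least 1 on the log2 scale was reached by 11 called members (8.03%) and by 8.36% of all genes. The 3 values of N2 all lay above those of N1 in 22 members (16.1%) and all below in 73 (53.3%), where all genes gave 21.0% and 42.6%. The median log2 change was -0.23 over the members and -0.16 over all genes. The balance of rises and falls depended on the scaling of the libraries. After each library was scaled by its median ratio, the median over all genes was -0.006, and 29 members rose (21.2%) and 43 fell (31.4%) against 23.9% and 22.3% of all genes. In that scaling the median over the members was -0.07. Directions below are those of the deposited values, and for the genes named, a call lost or gained with median-ratio scaling is given beside the gene. Of the calls, 14 of the 17 rises and 35 of the 59 falls were the same under every alternative that could be run.

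**Figure D2:**
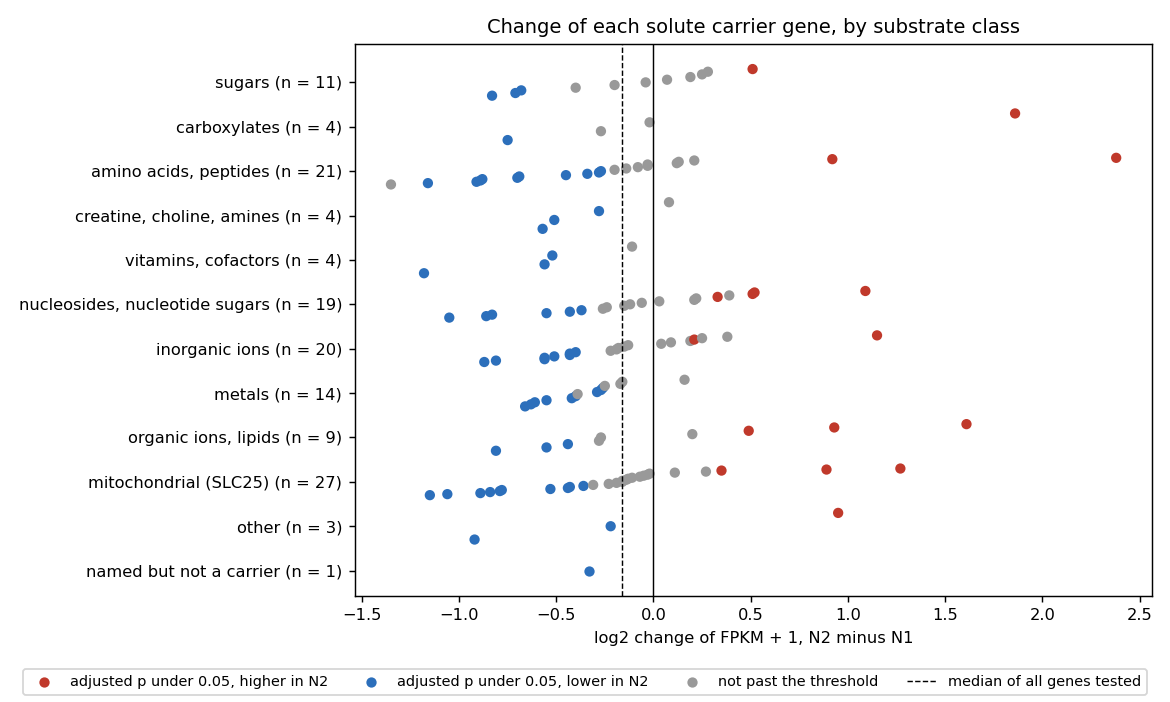
Log2 change (N2 minus N1, log2 of FPKM + 1) of each of the 137 tested members by substrate class, red where it rose and blue where it fell in limma and grey where it did not pass, with the median of all genes as a dashed line. Points lie between -1.35 and 2.38, and no carrier of metals, of vitamins or of creatine, choline and amines is red.

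The sugar carriers that could be analysed held a rise of the glucose 6-phosphate carrier SLC37A4 and falls of SLC37A2, SLC2A12 and SLC2A10. Of 11 tested, 1 rose and 3 fell (9.09% and 27.3%, against 16.5% and 34.4% of all genes), and 7 did not pass. The median log2 change was -0.04. SLC37A4, which carries glucose 6-phosphate into the endoplasmic reticulum (chr9:46247278-46254068 in Sscrofa11.1), was at 11.6, 12.2 and 12.3 FPKM in N1 replicates 4, 5 and 6 and 19, 16.6 and 16.9 FPKM in N2 replicates 4, 5 and 6. SLC37A4 rose (log2 change 0.51, SE 0.08, limma adjusted p = 0.00263). All N2 libraries lay above all N1 libraries. Its relative SLC37A2 went the other way, at 6.15, 7.67 and 12.1 FPKM in N1 and 4.13, 4.43 and 4.17 FPKM in N2 with N1 replicate 6 the highest. SLC37A2 fell (log2 change -0.83, SE 0.21, limma adjusted p = 0.0166), but did not pass without N2 replicate 4 (limma adjusted p = 0.0525). Among the facilitative glucose carriers of the SLC2 family, SLC2A12 fell from 5.42 ± 0.824 to 3.0 ± 0.423 FPKM (SD, n = 3, log2 change -0.68, limma adjusted p = 0.00653). SLC2A10 fell as well, from 2.41, 3.0 and 3.79 FPKM in N1 to 1.86, 1.01 and 1.62 FPKM in N2 (log2 change -0.71, limma adjusted p = 0.0185). SLC2A10 did not pass without N1 replicate 5 or N2 replicate 5 (limma adjusted p between 0.0532 and 0.0585). SLC2A8 and SLC2A11, at about the same level, and the myo-inositol carrier SLC2A13 did not pass. SLC2A4, the insulin-responsive glucose carrier of mature muscle, was listed at 0 in the 3 N1 libraries and at 0.0581, 0.0552 and 0.101 FPKM in N2. These are 7 fragments in all, far under the minimum. The sodium-coupled family member SLC5A4 was the most abundant of the class, at 19.1, 16.1 and 14.5 FPKM in N1 and 22.2, 20.8 and 17.9 FPKM in N2. The groups overlapped, and SLC5A4 did not pass (log2 change 0.28, limma adjusted p = 0.0925). With median-ratio scaling it passed (0.45 on the log2 scale, limma adjusted p = 0.0291), as did SLC2A8 (0.38, adjusted p = 0.0379) and SLC45A4 (0.34, adjusted p = 0.0228), which left 4 rises and 3 falls. SLC5A4 also passed without N1 replicate 4 (limma adjusted p = 0.0330) and SLC2A8 without N1 replicate 6 (limma adjusted p = 0.0158).

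The monocarboxylate carriers held one of the largest rises. SLC16A3, known as MCT4, the exporter of lactate in glycolytic cells (chr12:796882-807480), was at 16, 19.7 and 29.6 FPKM in N1 replicates 4, 5 and 6 and 80.2, 80.0 and 76.6 FPKM in N2 replicates 4, 5 and 6. The N2 libraries lay close together and well above the N1 libraries, in which replicate 6 was the highest. The means differed 3.63-fold (log2 change 1.86, SE 0.20, limma adjusted p = 0.00115), and without N1 replicate 6 the log2 change was 2.09. With it the share of the 15 carboxylate carriers in the summed SLC FPKM was 0.857%, 1.01% and 1.39% in N1 and 3.35%, 3.36% and 3.21% in N2. SLC16A5 was 1.36 to 2.68 FPKM in N1 and 0.675 to 0.744 FPKM in N2 and fell (log2 change -0.75, limma adjusted p = 0.0135). SLC16A12, at 1.32, 1.56 and 2.62 FPKM in N1 and 1.33, 1.62 and 2.38 FPKM in N2, and SLC16A13 did not pass. EMB (embigin), a chaperone that takes monocarboxylate carriers to the membrane, was at 10.9, 12.3 and 16.5 FPKM in N1 and 5.85, 5.87 and 5.51 FPKM in N2. EMB fell (log2 change -1.06, limma adjusted p = 0.00202), opposite to SLC16A3. The row of BSG, the chaperone that SLC16A3 is known to use, was not analysed here.

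Carriers of amino acids and peptides held the highest log2 change of all members, that of the peptide carrier SLC15A2, and more falls than rises. Of 21 tested, 2 rose and 10 fell (9.52% and 47.6%, against 16.5% and 34.4% of all genes), and 9 did not pass. The median log2 change was -0.27. With median-ratio scaling 3 rose and 6 fell (14.3% and 28.6%, against 23.9% and 22.3% of all genes). SLC15A2, the proton-coupled carrier of di- and tripeptides PEPT2 (chr13:138595942-138634473), was at 19.4, 14.5 and 3.97 FPKM in N1 replicates 4, 5 and 6 and 72.7, 63.9 and 45.3 FPKM in N2 replicates 4, 5 and 6. SLC15A2 rose (log2 change 2.38, SE 0.51, limma adjusted p = 0.00861), and its lowest library was N1 replicate 6. Without that library the log2 change was 1.77 (limma adjusted p = 0.00141). The lysosomal members of the same family went the other way. SLC15A4 fell (log2 change -0.34, limma adjusted p = 0.0231) and so did SLC15A3 (log2 change -0.70, limma adjusted p = 0.0237). SLC15A4 did not pass with median-ratio scaling (limma adjusted p = 0.141) or without N1 replicate 5 or N2 replicate 5 or 6 (limma adjusted p between 0.0646 and 0.0775). SLC15A3 did not pass without N1 replicate 5 or N2 replicate 4 or 5 (limma adjusted p between 0.0594 and 0.0793).

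SLC43A2, the sodium-independent carrier LAT4 for branched-chain and other large neutral amino acids, was at 7.89, 7.90 and 6.42 FPKM in N1 replicates 4, 5 and 6 and 15.7, 15 and 13.7 FPKM in N2 replicates 4, 5 and 6. SLC43A2 rose (log2 change 0.92, SE 0.10, limma adjusted p = 0.00119). SLC38A2, the sodium-coupled carrier SNAT2 for small neutral amino acids, was at 14.7, 15.4 and 18.2 FPKM in N1 and 6.20, 8.78 and 10.3 FPKM in N2. SLC38A2 fell (log2 change -0.88, SE 0.17, limma adjusted p = 0.00669). In both, every N2 library lay on one side of every N1 library. As a ratio within a library, which does not depend on scaling, SLC43A2 made up 35.0%, 33.9% and 26.1% of the sum of the pair in N1 replicates 4, 5 and 6 and 71.7%, 63.1% and 57.1% in N2. The pair was chosen after its values were seen and was not tested, and its sum stayed between 21.9 and 24.6 FPKM in all 6 libraries. Of the 6 tested SLC38 genes none rose and 4 fell, where 16.5% of all genes rose and 34.4% fell. With median-ratio scaling 2 of the 6 fell, where 22.3% of all genes did. SLC38A6 was at 11.4, 12.8 and 13.9 FPKM in N1 and 6.20, 5.80 and 6.75 FPKM in N2. SLC38A6 fell (log2 change -0.91, SE 0.10, limma adjusted p = 0.00112). SLC38A1 (log2 change -0.45, limma adjusted p = 0.0380) and SLC38A9, the arginine sensor of the lysosome (log2 change -0.28, limma adjusted p = 0.0429), also fell. With median-ratio scaling neither passed (limma adjusted p = 0.110 and 0.268). SLC38A1 did not pass without N1 replicate 5 or 6 or N2 replicate 4, 5 or 6 (limma adjusted p between 0.0504 and 0.112) either. SLC38A9 did not pass without N1 replicate 4 or 5 or N2 replicate 4, 5 or 6 (limma adjusted p between 0.0592 and 0.150). SLC38A10 was the most abundant amino acid carrier at 94.9, 101 and 101 FPKM in N1 and 72.9, 86.1 and 102 FPKM in N2. It did not pass (log2 change -0.20, limma adjusted p = 0.208), except without N2 replicate 6 (log2 change -0.32, adjusted p = 0.0389).

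SLC7A11, the light chain of the cystine and glutamate exchanger, was at 3.47, 3.24 and 3.48 FPKM in N1 replicates 4, 5 and 6 and 0.873, 1.34 and 2.02 FPKM in N2 replicates 4, 5 and 6. SLC7A11 fell (log2 change -0.89, SE 0.18, limma adjusted p = 0.00697). Its heavy chain SLC3A2, which also serves several other light chains, was at 25.9, 28.3 and 27.5 FPKM in N1 and 30.0, 27.4 and 32.4 FPKM in N2. SLC3A2 did not pass (log2 change 0.13, limma adjusted p = 0.208), although it rose with median-ratio scaling (0.30 on the log2 scale, adjusted p = 0.0199). SLC1A5, the exchanger of glutamine and other neutral amino acids, was at 26.2, 28.1 and 31.4 FPKM in N1 and 23.9, 23.2 and 23.5 FPKM in N2 (log2 change -0.27, limma adjusted p = 0.0275). This fall was small, and it did not pass with median-ratio scaling (-0.10 on the log2 scale, adjusted p = 0.274) or without N1 replicate 5 or N2 replicate 4, 5 or 6 (limma adjusted p between 0.0623 and 0.0920). SLC1A6, a glutamate carrier known from Purkinje cells, was low, at 2.70, 3.39 and 6.89 FPKM in N1 and 0.955, 1.44 and 1.40 FPKM in N2, with N1 replicate 6 far above the rest. SLC1A6 fell (log2 change -1.16, SE 0.28, limma adjusted p = 0.0140), but did not pass without N2 replicate 4 (limma adjusted p = 0.0506). SLC6A17, a vesicular carrier of neutral amino acids, had the lowest log2 change of all members but did not pass (log2 change -1.35, limma adjusted p = 0.0529), and its N1 libraries ranged from 2.66 to 13 FPKM. It passed without N1 replicate 6, with a log2 change of -0.75 (limma adjusted p = 0.00757), and also without N1 replicate 4, with a log2 change of -1.71 (limma adjusted p = 0.0252). With a pseudocount of 0.1 it passed as well (log2 change -1.76, limma adjusted p = 0.0380). SLC36A4 fell too (log2 change -0.69, limma adjusted p = 0.0103), whereas SLC7A1, the carrier of cationic amino acids, had a log2 change of -0.03 (limma adjusted p = 0.890).

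**Figure D3:**
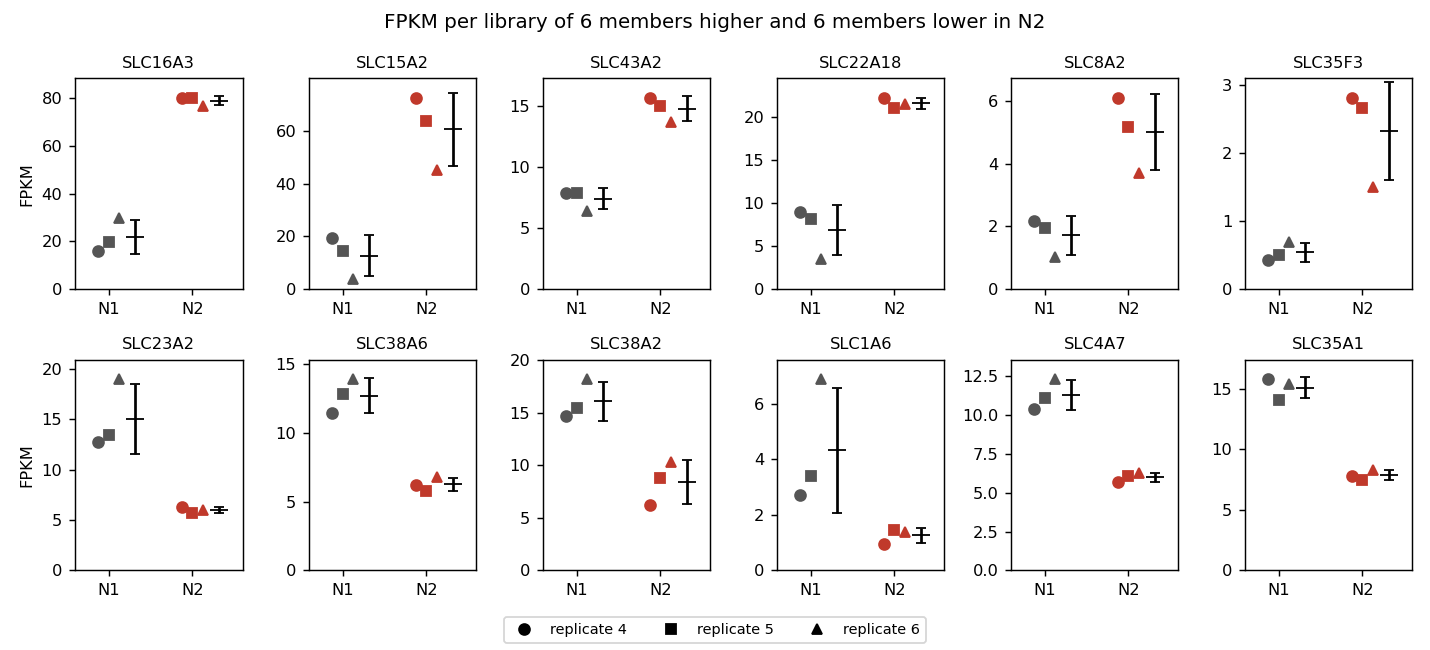
FPKM in each library (circle, square and triangle for replicates 4, 5 and 6, grey N1, red N2) of 6 SLC members that rose and 6 that fell, with the mean and SD (n = 3) as a black bar and each panel's axis starting at 0. The N1 and N2 libraries do not overlap in any panel, and N1 replicate 6 is the lowest N1 library for SLC15A2, SLC43A2, SLC22A18 and SLC8A2 and the highest for SLC16A3, SLC35F3, SLC23A2, SLC38A6, SLC38A2, SLC1A6 and SLC4A7.

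Carriers of creatine, choline and amines, and those of vitamins and cofactors, held falls and no rise. In the first group 3 of 4 tested fell, where 16.5% of all genes rose and 34.4% fell. With median-ratio scaling only 1 of the 4 fell, where 22.3% of all genes did. SLC6A8, which takes up the creatine that muscle stores as phosphocreatine, was among the most abundant members at 75.9, 81.4 and 81.6 FPKM in N1 replicates 4, 5 and 6 and 68.2, 65 and 63.5 FPKM in N2 replicates 4, 5 and 6. SLC6A8 fell (log2 change -0.28, SE 0.06, limma adjusted p = 0.00973). The change was small next to its level, and with median-ratio scaling it did not pass (log2 change -0.10, adjusted p = 0.183). Of the choline carriers, SLC44A2 was at 52.5, 56.8 and 67.7 FPKM in N1 and 39.9, 39.1 and 38.7 FPKM in N2. SLC44A2 fell (log2 change -0.57, SE 0.10, limma adjusted p = 0.00397). SLC44A1 was at 37.1, 39.2 and 45.4 FPKM in N1 and 47.6, 45.4 and 36.4 FPKM in N2 and did not pass (log2 change 0.08, limma adjusted p = 0.605). SLC18B1 fell (log2 change -0.51, limma adjusted p = 0.0327). SLC18B1 did not pass with median-ratio scaling (limma adjusted p = 0.0773) or without N1 replicate 5 or N2 replicate 4, 5 or 6 (limma adjusted p between 0.0563 and 0.0956). The taurine carrier SLC6A6 lay under the minimum, at 0.410, 0.456 and 0.518 FPKM in N1 and 0.103, 0.219 and 0.296 FPKM in N2, or 43 and 23 fragments.

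Of the 4 tested vitamin and cofactor carriers 3 fell and none rose, where 34.4% of all genes fell and 16.5% rose. With median-ratio scaling 3 of the 4 fell, where 22.3% of all genes did. All 3 falls were the same under every alternative run. SLC23A2, the sodium-coupled carrier SVCT2 of ascorbate (chr17:13848726-14012054), was at 12.7, 13.4 and 19 FPKM in N1 replicates 4, 5 and 6 and 6.27, 5.70 and 5.99 FPKM in N2 replicates 4, 5 and 6. The N2 libraries were tightly grouped below all N1 libraries, the means differed 2.51-fold (log2 change -1.18, SE 0.15, limma adjusted p = 0.00165), and without N1 replicate 6 the log2 change was -1.01. SLC5A6, which carries biotin, pantothenate and lipoate, was at 12.9, 14.2 and 15.6 FPKM in N1 and 8.86, 9.33 and 9.80 FPKM in N2 (log2 change -0.56, limma adjusted p = 0.00309). SLC33A1, which takes acetyl-CoA into the endoplasmic reticulum, was at 17.2, 17.1 and 18.4 FPKM in N1 and 11.7, 11.9 and 12.1 FPKM in N2 (log2 change -0.52, limma adjusted p = 0.00155). The thiamine carrier SLC19A2 was at 6.53, 6.20 and 5.34 FPKM in N1 and 4.99, 5.04 and 6.50 FPKM in N2 and did not pass (log2 change -0.11, limma adjusted p = 0.465). The share of the class in the summed SLC FPKM was 1.94% to 2.07% in N1 and 1.28% to 1.37% in N2.

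Among carriers of nucleosides and nucleotide sugars, 4 of 19 tested rose and 6 fell (21.1% and 31.6%, against 16.5% and 34.4% of all genes). With median-ratio scaling 7 rose and 5 fell (36.8% and 26.3%, against 23.9% and 22.3% of all genes). SLC29A1, the equilibrative nucleoside carrier ENT1, was the most abundant at 75.8, 71.9 and 48.6 FPKM in N1 replicates 4, 5 and 6 and 94.6, 96.2 and 86.3 FPKM in N2 replicates 4, 5 and 6. SLC29A1 rose (log2 change 0.52, SE 0.17, limma adjusted p = 0.0372). N2 lay above N1 in every library, but N1 replicate 6 was low. Without it the log2 change was 0.32 (limma adjusted p = 0.00937), but SLC29A1 did not pass without N1 replicate 5 or N2 replicate 4, 5 or 6 (limma adjusted p between 0.0510 and 0.109). The Golgi carriers of the SLC35 family moved in both directions. SLC35A1, which loads CMP-sialic acid, was at 15.8, 14.1 and 15.4 FPKM in N1 and 7.82, 7.48 and 8.33 FPKM in N2. It had the lowest adjusted p of all members (log2 change -0.86, SE 0.08, limma adjusted p = 0.000801). SLC35A4 rose from 36.1, 34.2 and 38.5 FPKM to 48.2, 53.4 and 54 FPKM (log2 change 0.51, SE 0.07, limma adjusted p = 0.00250). SLC35A5 (log2 change -0.83, limma adjusted p = 0.00141), SLC35F5 (log2 change -0.37, limma adjusted p = 0.00312) and SLC35B3, a carrier of the sulphate donor PAPS (log2 change -0.55, limma adjusted p = 0.00309), fell. SLC35A2, the UDP-galactose carrier, and SLC35A3, a UDP-N-acetylglucosamine carrier, did not pass, with log2 changes of 0.22 and -0.15 (limma adjusted p = 0.0904 and 0.0783). With median-ratio scaling SLC35A2 rose (adjusted p = 0.0138). The GDP-fucose carrier SLC35C1 fell on the deposited values (log2 change -0.43, limma adjusted p = 0.0264). SLC35C1 did not pass with that scaling (limma adjusted p = 0.0535) or without N1 replicate 5 or N2 replicate 4, 5 or 6 (limma adjusted p between 0.0670 and 0.0784).

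The largest changes of the class were in low members of the SLC35F subfamily. They are in this class because the whole SLC35 family was put in it. SLC35F3 was at 0.430, 0.499 and 0.699 FPKM in N1 and 2.82, 2.67 and 1.50 FPKM in N2, 4.29-fold in the means (log2 change 1.09, SE 0.19, limma adjusted p = 0.00454). SLC35F2 was at 1.45, 2.24 and 4.08 FPKM in N1 and 0.431, 0.688 and 0.882 FPKM in N2, with N1 replicate 6 the highest. SLC35F2 fell (log2 change -1.05, SE 0.27, limma adjusted p = 0.0181), but did not pass without N2 replicate 4 or 5 (limma adjusted p between 0.0550 and 0.0615). SLC35G1 rose on all 6 libraries (log2 change 0.33, limma adjusted p = 0.0431) but did not pass in any of the 6 fits without a library (limma adjusted p between 0.0501 and 0.149).

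Carriers of inorganic ions held 2 rises and 8 falls among 20 tested, where 16.5% of all genes rose and 34.4% fell. SLC8A2, the sodium-calcium exchanger NCX2, was at 2.17, 1.95 and 1.01 FPKM in N1 replicates 4, 5 and 6 and 6.11, 5.18 and 3.71 FPKM in N2 replicates 4, 5 and 6. SLC8A2 rose (log2 change 1.15, SE 0.22, limma adjusted p = 0.00612). All N2 libraries lay above all N1 libraries, and replicate 6 was the lowest in both groups. SLC8A3, the exchanger NCX3 of skeletal muscle, was at 2.37, 2.88 and 5.92 FPKM in N1 and 5.06, 4.02 and 3.45 FPKM in N2, with the highest value in N1 replicate 6. SLC8A3 did not pass (log2 change 0.19, limma adjusted p = 0.581). Without that library it rose (log2 change 0.51, limma adjusted p = 0.0333). The mitochondrial exchanger SLC8B1 did not pass (log2 change -0.22, limma adjusted p = 0.0733), except without the same library (adjusted p = 0.0355). SLC24A5, a potassium-dependent sodium-calcium exchanger known from pigment cells, was at 3.72, 4.85 and 7.49 FPKM in N1 and 2.39, 2.27 and 2.50 FPKM in N2. SLC24A5 fell (log2 change -0.87, limma adjusted p = 0.0134).

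Of the cation-chloride cotransporters, SLC12A2 (NKCC1), which takes chloride in, was at 32.8, 33.5 and 34.8 FPKM in N1 and 37.3, 41.1 and 38.9 FPKM in N2. SLC12A4 (KCC1), which lets chloride out, was at 33.9, 36.2 and 44.5 FPKM in N1 and 23.9, 23.7 and 28.6 FPKM in N2. SLC12A4 fell (log2 change -0.56, SE 0.12, limma adjusted p = 0.00900). The rise of SLC12A2 was small (log2 change 0.21, limma adjusted p = 0.0302) and did not pass without N1 replicate 4 or 5 or N2 replicate 5 or 6 (limma adjusted p between 0.0671 and 0.120). Within a library SLC12A2 made up 49.2%, 48.1% and 43.9% of the sum of this pair in N1 and 60.9%, 63.4% and 57.7% in N2, a ratio chosen after its values were seen and not tested. Of the 4 tested bicarbonate carriers of the SLC4 family, none rose and 3 fell on the deposited values. Over all genes tested, 16.5% rose and 34.4% fell. SLC4A7, a sodium-bicarbonate cotransporter, was at 10.4, 11.1 and 12.3 FPKM in N1 and 5.67, 6.09 and 6.23 FPKM in N2. SLC4A7 fell (log2 change -0.81, SE 0.09, limma adjusted p = 0.00114). SLC4A4, another, was at 19, 18.7 and 19.5 FPKM in N1 and 13.4, 14 and 14.2 FPKM in N2 and fell (log2 change -0.43, limma adjusted p = 0.00228). SLC4A9 lay under the minimum. The chloride-bicarbonate exchangers SLC4A3 and SLC4A2 were the most abundant of the class. SLC4A3 was at 48.1 ± 8.74 FPKM in N1 and 35.4 ± 4.99 FPKM in N2 (SD, n = 3), and SLC4A2 at 37.1 ± 7.48 FPKM in N1 and 43.7 ± 2.73 FPKM in N2. SLC4A3 passed narrowly (log2 change -0.43, limma adjusted p = 0.0490) and did not pass with median-ratio scaling (adjusted p = 0.171) or without N1 replicate 5 or 6 or N2 replicate 4 or 5 (limma adjusted p between 0.0796 and 0.147). SLC4A2 did not pass (log2 change 0.25, limma adjusted p = 0.171), yet it rose with median-ratio scaling (log2 change 0.42, limma adjusted p = 0.0332) and without N1 replicate 6 (log2 change 0.40, limma adjusted p = 0.00522). The share of SLC4A2 in their sum was 43.5%, 42.9% and 44.1% in N1 and 55.7%, 57.3% and 53.1% in N2, again untested. Of the sodium-proton exchangers, the endosomal form SLC9A9 (log2 change -0.56, limma adjusted p = 0.0181) fell. SLC9A9 did not pass without N2 replicate 5 (limma adjusted p = 0.0680). SLC20A2, a phosphate cotransporter, was at 8.21, 9.18 and 8.12 FPKM in N1 and 8.83, 9.50 and 8.95 FPKM in N2. It did not pass (log2 change 0.09, limma adjusted p = 0.376), except after median-ratio scaling (adjusted p = 0.0469) and quantile normalization (adjusted p = 0.0463).

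Of the 14 tested metal carriers, 9 fell (64.3%) and none rose, where 34.4% of all genes fell and 16.5% rose. With median-ratio scaling 6 fell and 1, SLC30A4, rose, where 22.3% of all genes fell and 23.9% rose. Zinc importers of the SLC39 family and zinc carriers of the Golgi and secretory pathway of the SLC30 family were among both the falls and the genes that did not pass. SLC39A6 was at 13.2, 13.2 and 15 FPKM in N1 replicates 4, 5 and 6 and 7.82, 8.14 and 9.18 FPKM in N2 replicates 4, 5 and 6. SLC39A6 fell (log2 change -0.66, SE 0.09, limma adjusted p = 0.00200). SLC39A9 (log2 change -0.42, limma adjusted p = 0.00742), SLC30A7 (log2 change -0.61, limma adjusted p = 0.00325) and SLC30A5 (log2 change -0.55, limma adjusted p = 0.00320) also fell under every alternative run. SLC39A1, the most abundant, fell from 36.7, 38.6 and 42.8 FPKM to 31.8, 30.6 and 33.3 FPKM (log2 change -0.29, limma adjusted p = 0.0181). SLC39A1 did not pass with median-ratio scaling (limma adjusted p = 0.180) or without N1 replicate 5 or N2 replicate 4 or 5 (limma adjusted p between 0.0504 and 0.0738). SLC30A9, at 39.3, 35.2 and 35.6 FPKM in N1 and 32.9, 33.6 and 31.9 FPKM in N2, did not pass (log2 change -0.16, limma adjusted p = 0.0841), and neither did SLC39A7, SLC30A6 and SLC30A4. All 3 magnesium carriers of the SLC41 family fell. SLC41A2 was at 2.27, 2.20 and 3.56 FPKM in N1 and 1.42, 1.43 and 1.19 FPKM in N2 (log2 change -0.63, limma adjusted p = 0.0183). SLC41A2 did not pass without N2 replicate 5 or 6 (limma adjusted p between 0.0528 and 0.0566). SLC41A3 had a log2 change of -0.40 (limma adjusted p = 0.00775, 0.118 with quantile normalization). SLC41A1 was close to the threshold (log2 change -0.27, limma adjusted p = 0.0405). SLC41A1 did not pass with median-ratio scaling (limma adjusted p = 0.384) or without N1 replicate 4, 5 or 6 or N2 replicate 4 or 5 (limma adjusted p between 0.0668 and 0.106). SLC39A13 was as close (log2 change -0.26, limma adjusted p = 0.0469). SLC39A13 did not pass with that scaling (limma adjusted p = 0.378) or without N1 replicate 5 or 6 or N2 replicate 4, 5 or 6 (limma adjusted p between 0.0528 and 0.136). SLC31A2, of the copper carrier family, was at 35.8, 30.8 and 15.9 FPKM in N1 and 20.1, 18.8 and 20.3 FPKM in N2 and did not pass (log2 change -0.39, limma adjusted p = 0.265). Its value in N1 replicate 6 was below every N2 library, and without that library it fell (log2 change -0.72, limma adjusted p = 0.00117). The iron exporter SLC40A1 lay under the minimum at 0.346, 0.151 and 0.205 FPKM in N1 and 0.184, 0.103 and 0.137 FPKM in N2.

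Few carriers of organic ions and lipids passed the minimum, and 3 of the 9 tested rose while 3 fell, where 16.5% of all genes rose and 34.4% fell. With median-ratio scaling 4 rose and 2 fell, where 23.9% of all genes rose and 22.3% fell. SLC22A18, a carrier of the organic cation family known as an imprinted gene in human (chr2:2032370-2055756), was at 8.91, 8.15 and 3.50 FPKM in N1 replicates 4, 5 and 6 and 22.3, 21.1 and 21.5 FPKM in N2 replicates 4, 5 and 6. All N2 libraries lay above all N1 libraries, the means differed 3.16-fold (log2 change 1.61, SE 0.29, limma adjusted p = 0.00457), and N1 replicate 6 was the lowest. Without it the log2 change was 1.25. SLC22A23, a member without a known substrate, was at 10.4, 9.60 and 10.5 FPKM in N1 and 20.5, 23 and 17.7 FPKM in N2. SLC22A23 rose (log2 change 0.93, SE 0.10, limma adjusted p = 0.00126). SLC22A15 fell, at 4.52, 5.18 and 7.82 FPKM in N1 and 2.70, 2.95 and 2.80 FPKM in N2 (log2 change -0.81, limma adjusted p = 0.00919), and so did SLC22A17 (log2 change -0.44, limma adjusted p = 0.0124). SLC22A17 did not pass with median-ratio scaling (limma adjusted p = 0.0585) or without N2 replicate 5 (limma adjusted p = 0.0508). SLC10A3, a member of the bile acid carrier family, was at 26.7, 25.8 and 28.5 FPKM in N1 and 36, 38.1 and 41.4 FPKM in N2 and rose (log2 change 0.49, limma adjusted p = 0.00273). SLC17A5, which takes sialic acid out of lysosomes, was at 7.49, 8.41 and 8.32 FPKM in N1 and 4.88, 5.80 and 4.92 FPKM in N2 and fell (log2 change -0.55, limma adjusted p = 0.00400). SLC27A1, the fatty acid transport protein FATP1 of muscle, was at 4.34, 5.42 and 5.88 FPKM in N1 and 5.94, 6.07 and 6.34 FPKM in N2. It did not pass (log2 change 0.20, limma adjusted p = 0.167), except with median-ratio scaling (adjusted p = 0.0297) and quantile normalization (adjusted p = 0.0137). Of the unassigned members, SLC49A3 rose (log2 change 0.95, limma adjusted p = 0.00219), SLC66A3 fell (log2 change -0.92, limma adjusted p = 0.00547) and SLC66A2 fell (log2 change -0.22, limma adjusted p = 0.0439). SLC66A2 did not pass in any of the 6 fits without a library (limma adjusted p between 0.0547 and 0.143) or with median-ratio scaling (adjusted p = 0.485). The adaptor SLC4A1AP fell on the deposited values (log2 change -0.33, limma adjusted p = 0.0159) but not with median-ratio scaling (adjusted p = 0.125) or quantile normalization (adjusted p = 0.0590).

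The mitochondrial carriers of the SLC25 family were the most abundant class. One adenine nucleotide carrier rose and another fell, and the sum of both stayed between 206 and 228 FPKM. SLC25A4 (ANT1, chr15:46193498-46197989), which exchanges ADP for ATP and is the isoform of heart and skeletal muscle, was at 92.4, 84.9 and 71.7 FPKM in N1 replicates 4, 5 and 6 and 171, 152 and 140 FPKM in N2 replicates 4, 5 and 6. SLC25A4 rose (log2 change 0.89, SE 0.12, limma adjusted p = 0.00178). SLC25A5 (ANT2, chrX:97919295-97922245), the isoform known from proliferating cells, was at 114, 127 and 156 FPKM in N1 and 52.4, 57.7 and 66.5 FPKM in N2. SLC25A5 fell (log2 change -1.15, SE 0.14, limma adjusted p = 0.00139). Every N2 library lay above every N1 library for the first and below for the second. SLC25A4 made up 44.7%, 40.0% and 31.5% of the sum of both in N1 replicates 4, 5 and 6 and 76.6%, 72.5% and 67.8% in N2. This share does not depend on how libraries are scaled, and it was described after its values were seen, with no test. The sum was 207, 212 and 228 FPKM in N1 and 223, 210 and 206 FPKM in N2. These genes are close paralogs, the third isoform SLC25A6 was not analysed here, and no source says how reads that match more than 1 gene were counted. SLC25A3, the phosphate carrier that supplies ATP synthase, was the highest of all members at 444, 440 and 478 FPKM in N1 and 423, 403 and 396 FPKM in N2. The groups did not overlap, but the change did not pass (log2 change -0.16, limma adjusted p = 0.0887).

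Of the 27 tested SLC25 members, 3 rose and 10 fell (11.1% and 37.0%, against 16.5% and 34.4% of all genes), and the median log2 change was -0.16, equal to that of all genes. SLC25A20, which brings acylcarnitines in for fatty acid oxidation, was at 21.1, 23.6 and 25.5 FPKM in N1 replicates 4, 5 and 6 and 11.8, 11.9 and 12.7 FPKM in N2 replicates 4, 5 and 6. SLC25A20 fell (log2 change -0.89, SE 0.08, limma adjusted p = 0.000896). Of the aspartate-glutamate carriers of the malate-aspartate shuttle, SLC25A13 (citrin) was at 10.3, 11.5 and 13.8 FPKM in N1 and 6.61, 6.26 and 6.53 FPKM in N2 and fell (log2 change -0.78, SE 0.11, limma adjusted p = 0.00212). SLC25A12 (aralar), the form of excitable tissues, was at 12.8, 12.2 and 12.6 FPKM in N1 and 16.9, 16.2 and 13.2 FPKM in N2. SLC25A12 missed the threshold (log2 change 0.27, limma adjusted p = 0.0577). It passed with median-ratio scaling (0.44 on the log2 scale, limma adjusted p = 0.0127) and without N2 replicate 6 (0.37, adjusted p = 0.0130). Its share in the sum of the pair was 55.4%, 51.3% and 47.8% in N1 and 71.8%, 72.2% and 66.9% in N2, untested as above. SLC25A47 was at 4.17, 2.74 and 2.99 FPKM in N1 and 7.40, 9.27 and 11.5 FPKM in N2. SLC25A47 rose (log2 change 1.27, SE 0.18, limma adjusted p = 0.00239). The glycine carrier SLC25A38 rose as well, at 11.6, 10.6 and 10.8 FPKM in N1 and 13.4, 14.6 and 14.8 FPKM in N2 (log2 change 0.35, limma adjusted p = 0.00854). SLC25A27, an uncoupling protein homologue known from brain, fell, at 8.83, 8.55 and 13.5 FPKM in N1 and 4.30, 3.89 and 4.76 FPKM in N2 (log2 change -1.06, limma adjusted p = 0.00340), with N1 replicate 6 the highest library. Falls were also found for SLC25A16 (-0.84), SLC25A43 (-0.79), the peroxisomal carrier SLC25A17 (-0.53), SLC25A39 (-0.44), the ATP-magnesium/phosphate carrier SLC25A24 (-0.43) and the coenzyme A carrier SLC25A42 (-0.36), with limma adjusted p between 0.00155 and 0.00953. Only SLC25A42 among these 10 falls lost its call under an alternative, with median-ratio scaling (adjusted p = 0.0525) and quantile normalization (adjusted p = 0.116). The citrate carrier SLC25A1 (log2 change 0.11, limma adjusted p = 0.538) and SLC25A46 (log2 change -0.02, limma adjusted p = 0.787) did not pass.

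**Figure D4:**
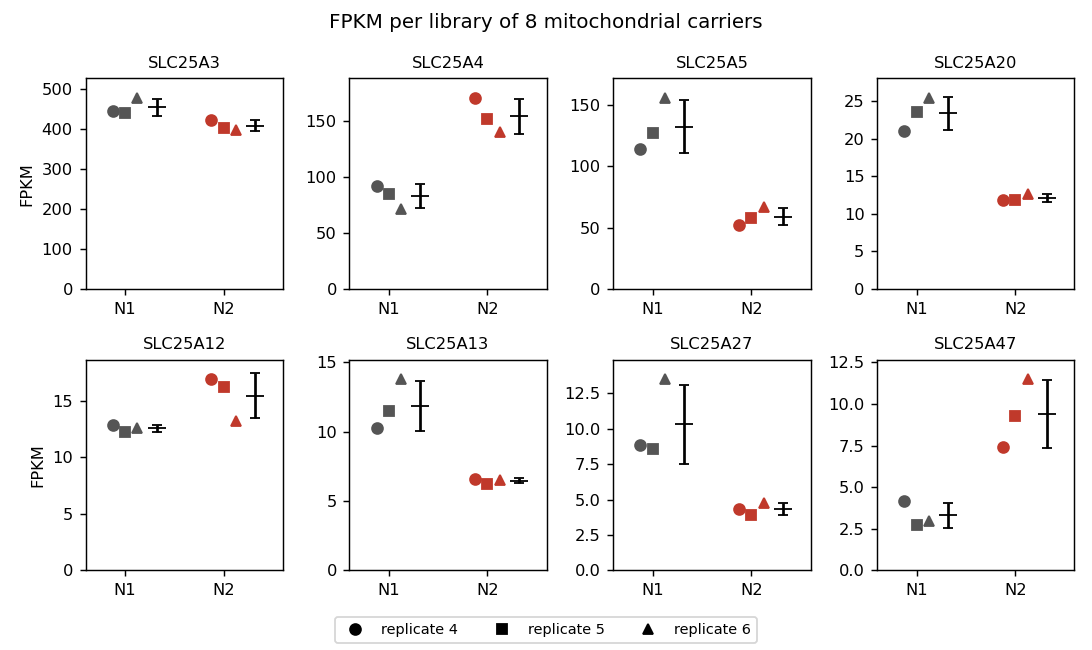
FPKM in each library (circle, square and triangle for replicates 4, 5 and 6, grey N1, red N2) of 8 mitochondrial carriers, with the mean and SD (n = 3) as a black bar and each panel's axis starting at 0. SLC25A4 stands at 71.7 to 92.4 FPKM in N1 and 140 to 171 in N2, SLC25A5 shows the opposite order, and SLC25A12, which did not pass the test, stands at 12.2 to 12.8 FPKM in N1 and 13.2 to 16.9 in N2.

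A list of 30 genes that work with SLC proteins was read in the same fit, of which 23 were paired with a row and 21 tested. Of these 4 rose, 7 fell and 10 did not pass, where 16.5% of all genes rose and 34.4% fell. Of the sodium pump, whose gradient drives the sodium-coupled carriers, the subunit ATP1B1 was at 54.4, 51.1 and 53.6 FPKM in N1 and 26.1, 28.5 and 34.4 FPKM in N2 and fell (log2 change -0.82, limma adjusted p = 0.00165). In the inner mitochondrial membrane, the pyruvate carrier subunit MPC2 rose (log2 change 0.37, limma adjusted p = 0.00832). The calcium uniporter MCU fell (log2 change -0.27, limma adjusted p = 0.0199). MCU did not pass with median-ratio scaling (limma adjusted p = 0.269) or without N2 replicate 5 or 6 (limma adjusted p between 0.0592 and 0.0615). The serine carrier SFXN1 fell from a low level (log2 change -0.53, limma adjusted p = 0.0403). SFXN1 did not pass with median-ratio scaling (limma adjusted p = 0.0767) or without N1 replicate 5 or 6 or N2 replicate 4, 5 or 6 (limma adjusted p between 0.0618 and 0.110). SFXN3 did not pass (log2 change 0.07, limma adjusted p = 0.760), except without N1 replicate 6 (adjusted p = 0.0267). The mitochondrial gene MTCH1 did not pass either.

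Among regulators of glucose carriers, ARRDC4, an arrestin-like inhibitor of glucose uptake, was at 2.31, 1.43 and 1.20 FPKM in N1 and 5.35, 3.81 and 3.13 FPKM in N2 and rose (log2 change 0.94, limma adjusted p = 0.0110). TBC1D1 (log2 change 0.58, limma adjusted p = 0.0526) and TBC1D4 (log2 change 0.30, limma adjusted p = 0.0599), which hold SLC2A4 vesicles back in the cell, missed the threshold, although their groups did not overlap. Both passed with median-ratio scaling (limma adjusted p = 0.0307 and 0.0201). TBC1D1 also passed without N1 replicate 4 or 6 (limma adjusted p between 0.0204 and 0.0228) and TBC1D4 without N2 replicate 6 (limma adjusted p = 0.0446). SORT1, a sorting receptor of the same vesicles, fell slightly (log2 change -0.22, limma adjusted p = 0.0287). SORT1 did not pass with that scaling (limma adjusted p = 0.546) or without N1 replicate 5 or N2 replicate 5 or 6 (limma adjusted p between 0.0789 and 0.0985). MFSD2A, a carrier of lysophospholipids, rose (log2 change 0.77, limma adjusted p = 0.0155), but did not pass without N2 replicate 6 (limma adjusted p = 0.0518). The phosphate exporter XPR1 (log2 change -0.40, limma adjusted p = 0.0134, 0.0670 with quantile normalization) and the ubiquitin ligase NEDD4L (log2 change -0.30, limma adjusted p = 0.0202) fell. NEDD4L did not pass with median-ratio scaling (limma adjusted p = 0.155) or without N1 replicate 5 or N2 replicate 5 or 6 (limma adjusted p between 0.0581 and 0.0832). LNPEP, WNK1, STK39 and CTNS did not pass, and SGK1 and ATP1B2 lay under the minimum.

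Leaving out N1 replicate 6 altered the size of several changes. Without it 20 members rose and 57 fell. The changes of SLC15A2 and SLC22A18 became smaller (2.38 to 1.77 and 1.61 to 1.25 on the log2 scale), as did those of SLC1A6 (-1.16 to -0.84) and SLC6A17 (-1.35 to -0.75), and that of SLC16A3 became larger (1.86 to 2.09). SLC25A4 and SLC25A5 changed by 0.79 and -1.03 without it. Its ACTA1 and MYMK levels were the lowest of N1 (467 FPKM, and 210 FPKM against 702 and 549), as were its SLC15A2 and SLC22A18 levels. SLC16A3, which also rose in N2, was instead at its highest N1 value in this library. The part of the lower ACTA1 and MYMK levels in the results was not tested.

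**Figure D5:**
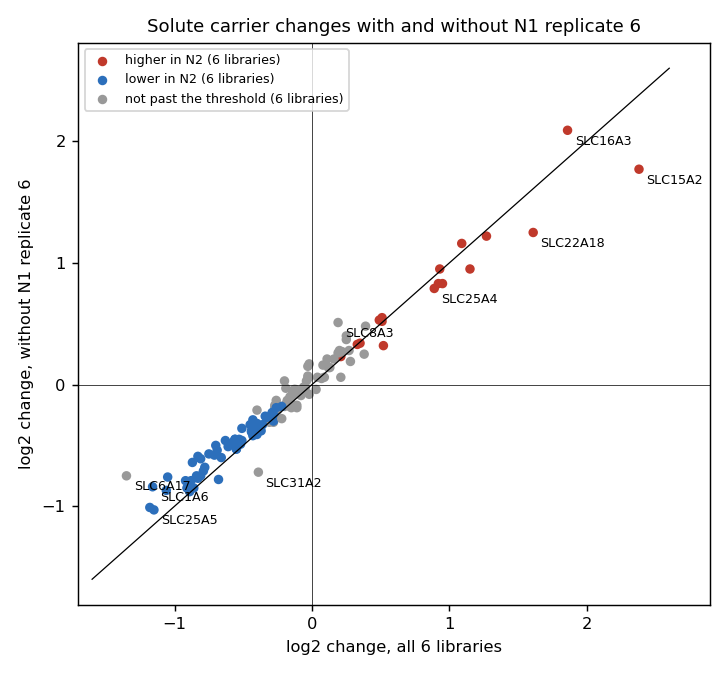
Log2 change (N2 minus N1) of the 137 tested SLC members with all 6 libraries (x axis) and without N1 replicate 6 (y axis), coloured by the limma call with all libraries, with the line of equal values. Most points lie near the line, while SLC15A2, SLC22A18, SLC6A17 and SLC1A6 lie closer to 0 on the y axis and SLC31A2 and SLC8A3 farther from 0.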

How the data were processed

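RNA of 6 PSC libraries, 3 of N1 and 3 of N2, was sequenced as paired ends. The authors deposited FPKM values per gene and library, none pooled, and no library column was left unused (0). The submitters' processing notes name TopHat2, Cufflinks, HTSeq and the pig genome Sscrofa11.1, while the paper's methods name HISAT2, StringTie and HTSeq. The strand setting and the handling of reads shared between genes are not given in the sources used here, so values of overlapping or near-identical genes are uncertain.

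Symbols and coordinates were matched to RefSeq for Sscrofa11.1. Of the FPKM values, all 19543 genes above 0 in at least 3 libraries were whole multiples of 1 fragment (tolerance 0.02 fragments), so fragments were recovered. FPKM values are not counts, so the comparison used limma (version 3.58.1, R version 4.3.3) on log2(FPKM + 1). A linear model by group was fitted to the 14060 genes averaging 1 FPKM or more, the spread was moderated along the mean (trended eBayes, two-sided), and p was adjusted by Benjamini-Hochberg (threshold 0.05). Changes are N2 minus N1 on the log2(FPKM + 1) scale, which understates changes of low genes. The fit was tested on simulated data. The 13 alternatives were a pseudocount of 0.1, no filter, a minimum of 5 FPKM, median-ratio scaling, quantile normalization, the replicate number as a block, limma voom on the recovered fragments, and leaving out each of the 6 libraries.

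Genes named in the text are the 2 most abundant, the 2 largest rises and the 2 largest falls (past the threshold, groups not overlapping) of each substrate class, a fixed list of carriers known in muscle, and partner genes. Further members are named where they complete a family or pair, and were chosen after their values were seen. The members, classes and lists were chosen with earlier results of these data known, and SLC35E2B was moved to the nucleotide sugar class after the values were seen. No sequences are printed. Some genes counted in the classes and the partner list are not reported here by name.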

Additional observations from a re-analysis of the deposited data

How the results depend on the processing

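As deposited, 17 members rose and 59 fell. Median-ratio scaling gave 29 rises and 43 falls. Quantile normalization gave 27 rises and 45 falls. Over the 6 fits that each left out 1 library, 14 to 20 members rose, 41 to 59 fell and 4889 to 7336 of all genes passed. Without N2 replicate 5, 41 fell and 4889 genes passed. With limma voom on the recovered fragments 17 rose and 60 fell. No named gene with a call on the deposited values turned direction under an alternative in which it was tested. Some without a call changed sign. With median-ratio scaling SLC7A1 went from -0.03 to 0.13, SLC16A12 from -0.02 to 0.09 and SLC25A46 from -0.02 to 0.14, and without N1 replicate 4 SFXN3 went from 0.07 to -0.08. The next counts cover only the members named by the fixed rule and the partner genes. Calls lost and gained numbered 12 and 8 under median-ratio scaling, 8 and 6 under quantile normalization, 5 and 0 without a filter and 0 and 2 with voom. Between 2 and 16 were lost and 0 and 5 gained when a library was left out. Further members outside these counts also lost a call with median-ratio scaling, among them SLC15A4, SLC38A1, SLC38A9 and SLC35C1. The cause was not tested. Deviations of samples with the same replicate number correlated weakly (0.15, -0.02 and 0.18 for replicates 4, 5 and 6). With so few libraries per group this cannot show whether they share an animal or a culture. With the replicate number as a block (replicate block), 7034 genes passed in place of 7156, 18 members rose and 58 fell. Members under 1 FPKM rest on few fragments. Those above 0 were tested only in the fit without a filter, which gave 19 rises and 62 falls over all members.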

Other observations

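Some of the 148 SLC members with a mean under 1 FPKM, which were tested at most in the fit without a filter, had N1 and N2 libraries that did not overlap. The ones given here were chosen after their values were seen. SLC6A13, a carrier of GABA and taurine, was at 0.0326, 0.101 and 0.0335 FPKM in N1 and 0.874, 0.503 and 0.428 FPKM in N2, from 5 fragments over the 3 N1 libraries and 67 over the 3 N2 libraries. SLC30A3, a vesicular zinc carrier known from neurons, was at 0.0780, 0.0805 and 0.0801 FPKM in N1 and 0.951, 0.482 and 0.293 FPKM in N2, from 3 fragments over the 3 N1 libraries and 27 over the 3 N2 libraries. Both were higher in every N2 library. SLC24A2, a potassium-dependent sodium-calcium exchanger, was lower in every N2 library, at 0.376, 0.362 and 1.03 FPKM in N1 and 0.0204, 0.0387 and 0.0235 FPKM in N2, from 69 fragments over the 3 N1 libraries and 4 over the 3 N2 libraries. Its highest value was in N1 replicate 6.

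SLC35F1 was at 1.09, 0.932 and 0.819 FPKM in N1 and 0.427, 0.340 and 0.256 FPKM in N2, from 133 fragments over the 3 N1 libraries and 59 over the 3 N2 libraries. SLC46A3, a lysosomal carrier, was at 0.433, 0.298 and 0.321 FPKM in N1 and 0.822, 0.744 and 0.587 FPKM in N2, from 43 fragments over the 3 N1 libraries and 108 over the 3 N2 libraries. SLC44A5, of the choline carrier family, was at 0.311, 0.482 and 0.457 FPKM in N1 and 0.145, 0.120 and 0.104 FPKM in N2, lower in every N2 library. These values cover the libraries measured. The members were included only in the fit without a filter, whose results for them are not given here.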
